A study of Mus musculus with 6 samples.

Results

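Of the 16557 genes listed in the 6 single-cell tables, 10 are examined here. They were listed by name, as genes known from lipid-associated macrophages, with no threshold on a measured value: *Apoe*, *Pltp*, *Lpl*, *Cd36*, *Fabp4*, *Fabp5*, *Trem2*, *Gpnmb*, *Lgals3* and *Spp1*. The tables hold UMI (unique molecular identifier) counts of 6 mouse rhabdoid tumors. Rhabdoid tumors are malignancies that arise after loss of *Smarcb1*, which encodes a core part of the SWI/SNF chromatin remodeler. All mice carried floxed *Smarcb1* and a tamoxifen-inducible cre recombinase, and recombination was induced with tamoxifen at 50 mg per kg on day 6.5 of gestation, so that no animal here was an untreated control. The 3 MYC spinal tumors came from Rosa26-cre mice aged 19 weeks (MYC spinal 1), 26 weeks (MYC spinal 2) and 17 weeks (MYC spinal 3). The 3 extracranial rhabdoid tumors (eRT) came from a Rosa26-cre mouse (eRT 1, 17 weeks by its label, at a gland) and from Sox2-cre mice (eRT 2, 29 weeks, in the jaw, and eRT 3, 22 weeks, at the shoulder). All ages are those of the labels, and for the Rosa26-cre mouse with an eRT the study's own list of animals gives another age. Spinal tumors below are these MYC spinal tumors. Rosa26 is active in nearly every cell and *Sox2* in early embryonic progenitors, and subtype and mouse model are therefore partly confounded. Each tumor is a single library from 1 animal.

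As background, lipid-associated macrophages are a state first described in fat tissue and also known from atherosclerotic plaques, injured brain and tumors. Macrophages that engulf dying cells or lipoproteins take in fatty acids and cholesterol, hydrolyse lipids in lysosomes and pass cholesterol on to secreted carrier particles. The receptor TREM2 binds lipids and lipoproteins, signals through the adaptor TYROBP and is needed for this state in several tissues. Among the other members, APOE and PLTP work outside the cell in lipoprotein particles, LPL and CD36 bring fatty acids to and into cells, FABP4 and FABP5 bind fatty acids in the cytoplasm, and GPNMB, galectin-3 (*Lgals3*) and osteopontin (*Spp1*) are membrane or secreted products that mark the state. Several of these genes are also used by osteoclasts, the multinucleated bone-resorbing cells that arise from the same myeloid precursors.

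Of the 10 genes, 7 had an entry in the RefSeq promoter table of GRCm38.p6: *Apoe*, *Pltp*, *Cd36*, *Trem2*, *Gpnmb*, *Lgals3* and *Spp1*. *Lpl*, *Fabp4* and *Fabp5* had none. *Apoe* had 3 start sites, *Spp1* 2 and the others 1, and the windows of all were searched. The 250 bases before the first listed start site are printed for *Apoe* and *Trem2*, because the levels of these 2 members ran most closely together over cell classes and tumors (given near the end). Capitals mark the letters GAGGAA, the core that the myeloid factor PU.1 prefers, read on either strand (on the opposite strand it reads TTCCTC). The *Apoe* window is chr7:19699189-19699438 on the minus strand and the *Trem2* window is chr17:48346151-48346400 on the plus strand.
Apoe: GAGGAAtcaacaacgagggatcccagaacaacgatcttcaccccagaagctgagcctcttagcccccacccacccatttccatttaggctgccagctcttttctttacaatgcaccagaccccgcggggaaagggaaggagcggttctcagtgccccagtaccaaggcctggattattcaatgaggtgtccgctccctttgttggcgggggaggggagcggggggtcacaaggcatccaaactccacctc
Trem2: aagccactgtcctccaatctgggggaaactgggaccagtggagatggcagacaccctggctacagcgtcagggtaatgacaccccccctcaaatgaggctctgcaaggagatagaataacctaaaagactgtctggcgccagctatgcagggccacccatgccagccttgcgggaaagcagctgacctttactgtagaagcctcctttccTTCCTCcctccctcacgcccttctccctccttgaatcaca
The match began 250 bases before the first listed start of *Apoe* and 40 bases before the start of *Trem2*. Others lay 132 bases before the last of the 3 *Apoe* starts, 248 bases before the start of *Pltp* and 113 bases before the first listed start of *Spp1*. GAGGAA was present in 23.25% of the 32851 windows of this length, so a match is common. AGGTCA, the letters of a nuclear receptor half-site that LXR can use, was present in *Trem2* and *Cd36* and in 14.02% of all windows. The E-box letters CACGTG and CATGTG (present in 6.021% and 12.25% of all windows) and the AP-1 letters TGACTCA (4.463%) were in none of the members' windows. Both strands were searched. These matches are descriptions of letters, not of binding.

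After cells under 200 genes or over 25% mitochondrial UMIs had been dropped, 22163 cells remained, and the tumors held 3841706 to 26184224 UMIs each. They were clustered without the members among the variable genes, and clusters were named from marker genes that include no member. Macrophages numbered 155, 81 and 1428 in spinal tumors 1 to 3 and 502, 263 and 2286 in eRT 1 to 3. Monocytes ranged from 38 to 2073 cells per tumor and tumor cells, taken as clusters short of *Smarcb1*, from 16 to 1478. Osteoclasts reached 10 cells in 4 tumors (1584 cells in MYC spinal 3, 827 in eRT 1, 40 in eRT 2 and 28 in eRT 3). The summed level of 11 macrophage markers was 3003 to 29420.2 CPM (the per-million share of all UMIs of the class) in macrophages and 305 to 14704 CPM in monocytes, and the monocytes of eRT 1 and eRT 3, at 14704 and 13199 CPM, stood above those of the other 4 tumors. Their 8 monocyte markers summed to only 2224 and 1225 CPM, though above the 487 and 401 CPM in macrophages of the same tumors. Of these monocytes, 132 of 258 in eRT 1 and 80 of 207 in eRT 3 came from a cluster led by *Rsad2*, *Ifit3* and *Cxcl10*. The name monocyte is therefore less certain in eRT 1 and eRT 3. A monocyte cluster of the MYC spinal tumors was led by *Mki67*, *Nusap1* and *Top2a*, genes of cell division. It gave 21 of 38, 754 of 2073 and 76 of 266 monocytes in spinal tumors 1 to 3. In the eRT, clusters led by *Rrm2* and *Top2a* and by *Cenpf* and *Birc5*, also division genes, stayed unnamed and entered no comparison. The monocytes of MYC spinal 1 stood apart in another list: 8 T cell markers summed to 2514.8 CPM in them, against 14.3 to 89.6 CPM in the monocytes of the other 5 tumors and 5773 CPM in the T cells of MYC spinal 1. The 10 osteoclast markers summed to 6965 to 25855 CPM in osteoclasts of MYC spinal 3, eRT 1 and eRT 3, but only to 108 CPM in the 40 cells of eRT 2, against 138 CPM in its macrophages, with 5 of 10 markers at 0. These 40 cells do not carry the markers of their label, and the fitted osteoclast difference of each tested member is given with and without eRT 2. The counts and shares of genes, the other listed genes and the correlations below include eRT 2 unless its omission is named. In MYC spinal 2 the macrophages had a median of 557 UMIs and 56602 UMIs in all, so that 3 counts in them equal 53.0 CPM. In its 16 tumor cells 3 counts equal 66.3 CPM. Monocyte markers summed to 4205 CPM in these macrophages, above their 3003 CPM of macrophage markers, and to 7531 CPM in the monocytes of that tumor. Neutrophil markers were at 9682 CPM in its macrophages, 18841 CPM in its monocytes and 17249 CPM in its tumor cells. Median UMIs per cell were 557 to 3878.5 in macrophages and 501 to 1936 in T cells, the class used below to show background, and the shares of cells with a UMI are given after thinning each cell to 1000 UMIs, which left 14 of the 81 macrophages of MYC spinal 2. The cells are numbered in the tables and carry no barcodes, so barcodes shared between libraries were not counted.

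Macrophages were compared with monocytes, tumor cells and osteoclasts of the same tumors, and eRT with MYC spinal tumors in macrophages and in tumor cells. UMIs were summed per tumor and class and tested with edgeR's quasi-likelihood test, paired by tumor where the classes came from the same animals, with Benjamini-Hochberg adjustment over all genes and a threshold of 0.05. Against tumor cells, 8 of the 9 members tested were higher in macrophages, where 19.1% of the 8139 genes tested were higher, 20.3% lower and 39.4% changed in either direction. *Fabp4* did not pass the filter on low counts, and *Cd36* was the tested member that missed the threshold. Of the 9, only *Apoe*, *Fabp5*, *Lgals3* and *Spp1* passed that filter in tumor cells alone. *Pltp*, *Lpl*, *Cd36*, *Trem2* and *Gpnmb* entered through the macrophages, so the direction of their differences was largely set by the filter, and the count is a description. Against monocytes, none of the 10 members passed the threshold (0.68% of 7797 genes did, 53 genes, 0.205% higher and 0.475% lower, and 945 had an unadjusted p under 0.05), and the members' median log2 fold change was 0.61, against -0.03 over all genes. DESeq2 called 1 of the members, *Apoe*, in that comparison. Osteoclasts differed from macrophages in 4 of 9 members, 1 higher and 3 lower, where 13.8% of 10114 genes differed, with 4.65% higher and 9.13% lower, with a median of -0.59 over the members and 0.00 over all genes. Counts of tumors in which a gene was higher refer to CPM after TMM scaling, the library-size correction of the test, unless plain CPM is named. Of all genes, 14.7% were higher and 13.6% lower in macrophages than in tumor cells of every tumor, and 9.74% were higher and 20% lower in osteoclasts than in macrophages of all 4 tumors. The plot of fitted differences shows the 3 comparisons side by side.

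**Figure D1:**
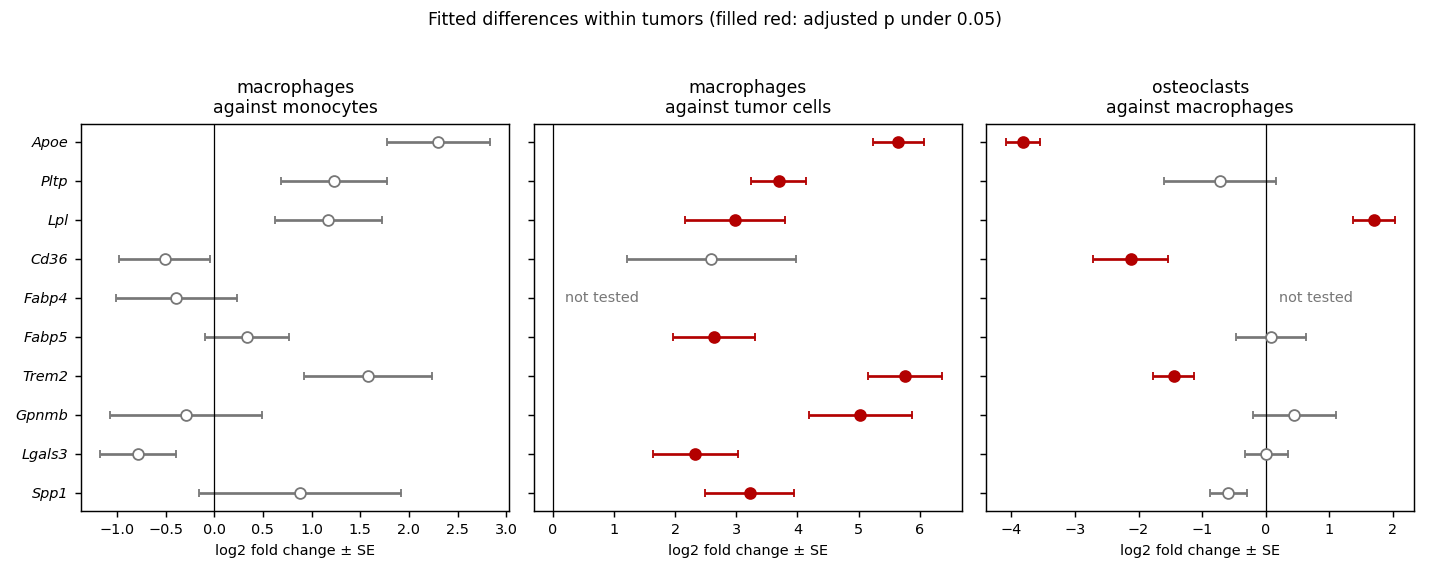
Log2 fold change of each gene (x axis, mean ± SE from edgeR) for macrophages against monocytes, macrophages against tumor cells and osteoclasts against macrophages. Filled red points have an adjusted p under 0.05. In the middle panel 8 of 9 genes are red and to the right of 0, with *Trem2* at 5.76 and *Apoe* at 5.65. There the direction of *Pltp*, *Lpl*, *Cd36*, *Trem2* and *Gpnmb* was largely set by the filter on low counts. In the right panel *Lpl* (1.70) lies opposite to *Apoe* (-3.82), *Cd36* (-2.12) and *Trem2* (-1.45).

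*Apoe* encodes the main apolipoprotein of macrophages and brain lipoproteins and lies on chromosome 7 (19696109 to 19699188, GRCm38, the build of all positions here). Its level in macrophages was 73519.9, 4187 and 4042 CPM in spinal tumors 1 to 3 and 14256, 15808 and 40415 CPM in eRT 1 to 3. Macrophages of MYC spinal 1 and eRT 3 were highest, and those of MYC spinal 2 and MYC spinal 3 lowest. In monocytes it was 3329.6, 186, 1169, 7398, 3059.9 and 27879.7 CPM in the same order of tumors, below the macrophages of the same tumor in 6 of 6. Of all genes tested, 3.64% were higher and 3.39% lower in macrophages than in monocytes of all 6 tumors, and the fitted difference was 2.30 ± 0.53 (log2 ± SE, adjusted p = 0.0894, edgeR). It passed the threshold with DESeq2 (2.31, adjusted p = 0.00328), at resolution 1.6 and with no filter on genes. It also passed with stricter cell filters (at least 500 genes and no more than 10% mitochondrial UMIs). Without MYC spinal 1 it passed too (1.82, adjusted p = 0.0421). The monocytes of that tumor carried T cell markers, and its own difference was 4.46. *Apoe* in these monocytes was at 11269 CPM in 16 cells and at 150 CPM in the 21 cells of the cluster led by *Mki67*. As in the main fit, *Apoe* missed the threshold without TMM factors, without pairing by tumor, at a lower clustering resolution and when any other tumor was left out. It also missed it with the members kept among the genes used for clustering. In osteoclasts *Apoe* reached 319.7, 1103, 1494 and 3094 CPM in MYC spinal 3 and eRT 1 to 3, below the macrophages in every tumor, and it fell by 3.82 ± 0.27 (adjusted p = 7.05e-05). Without eRT 2 the difference was -3.86.

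In tumor cells *Apoe* was at 566, 66.3, 109.9, 438, 402 and 1406 CPM, and macrophages exceeded them by 5.65 ± 0.42 (adjusted p = 2.51e-06). The value of MYC spinal 2 rests on 3 UMIs in 16 cells. T cells, which should lack *Apoe*, held 202, 48.1, 175, 262, 349 and 3969 CPM, so the tumor cells of MYC spinal 3 and eRT 3 lay under the T cells of the same tumor. After thinning every cell to 1000 UMIs, 46.1% of tumor cells and 49.3% of T cells of eRT 3 had an *Apoe* UMI, against 99.8% of its macrophages. In eRT 3 the tumor cells without a UMI of *Ptprc*, *Csf1r*, *C1qa*, *C1qb* or *C1qc* had 482 CPM of *Apoe*, and in eRT 2 the level went from 402 to 111 CPM. In MYC spinal 1 the tumor cells kept their level, 567 CPM, and exceeded its T cells before this step (95% Poisson interval 505 to 632 against 181 to 225 CPM). With tumor cells that held such UMIs left out, the macrophage excess was 6.53, and the same 8 members were called.

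*Pltp*, the phospholipid transfer protein that moves lipids between lipoproteins, is on chromosome 2 (164839518 to 164857711). Macrophages held 114, 70.7 and 307 CPM in spinal tumors 1 to 3 and 344, 316 and 26.6 CPM in eRT 1 to 3. The level in eRT 3 lay below that of the other 5 tumors. Monocytes held 17.6, 2.91, 137, 257, 37.1 and 69.8 CPM and were lower than macrophages in 5 of 6 tumors, eRT 3 being the exception. The difference was 1.23 ± 0.54 (adjusted p = 0.39). Tumor cells had 0 to 27.8 CPM. Macrophages exceeded them in all 6 tumors, by 3.69 ± 0.45 (adjusted p = 6.01e-05), a direction largely set by the filter on low counts. In MYC spinal 2 this rested on 4 macrophage UMIs and on 0 UMIs in 16 tumor cells, which allows up to 66.3 CPM. Osteoclasts split, with 65.3, 264 and 10.8 CPM in MYC spinal 3, eRT 1 and eRT 2, all below the macrophages, and 381 CPM in eRT 3, above them. The fitted difference to macrophages was -0.72 ± 0.88 (adjusted p = 0.695) and -0.04 without eRT 2.

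*Lpl*, the lipase that releases fatty acids from triglyceride-rich lipoproteins, is on chromosome 8 (68880491 to 68907448). It is the member that was higher in osteoclasts than in macrophages: osteoclasts held 176, 226, 118 and 64.8 CPM in MYC spinal 3 and eRT 1 to 3, against 101, 46.4, 35.4 and 7.82 CPM in their macrophages. The levels in osteoclasts exceeded those in macrophages within each of the 4 tumors, although 101 CPM in the macrophages of MYC spinal 3 is above 64.8 CPM in the osteoclasts of eRT 3. The difference was 1.70 ± 0.33 (adjusted p = 0.00598), and 1.72 (adjusted p = 0.0114) without eRT 2. It lost the call without eRT 1 (1.47, adjusted p = 0.0761), in stricter cells (1.29) and when the members were kept among the genes used for clustering (1.51). Thinned to 1000 UMIs, 13.6% of osteoclasts of MYC spinal 3 and 17.4% of those of eRT 1 had a *Lpl* UMI, against 8.05% and 3.78% of macrophages and 1% and 0% of T cells.

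In the remaining MYC spinal tumors *Lpl* was at 162 CPM in macrophages of MYC spinal 1 (85 UMIs) and at 0 of 56602 UMIs in those of MYC spinal 2, which allows up to 53.0 CPM. Monocytes held 0 to 86.0 CPM, and macrophages exceeded them in 5 of 6 tumors (in eRT 3 only after scaling, 7.82 against 8.06 CPM before it), with a difference of 1.17 ± 0.55 (adjusted p = 0.429), or 0.58 without MYC spinal 1. Tumor cells held 0 to 8.29 CPM in 5 tumors and 88.3 CPM, from 4 UMIs in 1 cell, in MYC spinal 2. The macrophage excess was 2.98 ± 0.82 (adjusted p = 0.0137), higher in 5 of 6 tumors, and it lost the call without MYC spinal 3 (2.44, adjusted p = 0.0659). *Lpl* entered this fit through the macrophages, so its direction was largely set by the filter on low counts.

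*Cd36*, a scavenger receptor that takes up fatty acids and oxidised lipoproteins (chromosome 5, 17781690 to 17888801), had the highest macrophage levels in both Sox2-cre eRT. Macrophages held 19.1, 0 and 7.57 CPM in spinal tumors 1 to 3 and 11.2, 52.1 and 78.6 CPM in eRT 1 to 3. The 0 of MYC spinal 2 allows up to 53.0 CPM, so its place below eRT 2 was not resolved. Monocytes of eRT 1 to 3 held 62.6, 44.2 and 102 CPM, and those of the MYC spinal tumors 0 to 6.03 CPM. Neither class was uniformly higher, and the difference was -0.51 ± 0.47 (adjusted p = 0.721). Osteoclasts held 0.514 and 4.67 CPM in MYC spinal 3 and eRT 1 and 0 in eRT 3, below the macrophages. In the 40 cells of eRT 2 it was 53.8 CPM (5 UMIs), next to 52.1 CPM in macrophages, and lower only after scaling. *Cd36* fell by 2.12 ± 0.59 in osteoclasts (adjusted p = 0.0365). Without eRT 2 the difference was -2.55 (adjusted p = 0.0183), and the call was lost without MYC spinal 3, eRT 1 or eRT 3 (-1.62, -2.71 and -1.76). It was also lost without TMM factors (-2.01, adjusted p = 0.0516) and at resolution 0.4 (-2.12, adjusted p = 0.0794).

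*Cd36* in tumor cells depended on 1 tumor. The level was 0 to 2.79 CPM in 5 tumors and 231 CPM (189 to 279, 108 UMIs) in eRT 1, where 45.6% of tumor cells had a UMI, against 2.79% of its macrophages. Of these cells, 37 belonged to a cluster led by *Cldn4*, *Cldn3*, *Cldn7* and *Epcam*, genes of epithelial junctions, with 452 CPM of *Cd36*. Of the 68 tumor cells, 19 held no UMI of the 5 immune genes named above, and these had 76.8 CPM of *Cd36* (7 UMIs). Its osteoclasts had 4.67 CPM and its 27 T cells 0. The macrophage excess over tumor cells was 2.59 ± 1.38 (adjusted p = 0.167) over all tumors and 4.36 (adjusted p = 0.000235) without eRT 1. *Cd36* entered the main fit through the macrophages, so its direction was largely set by the filter on low counts.

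**Figure D2:**
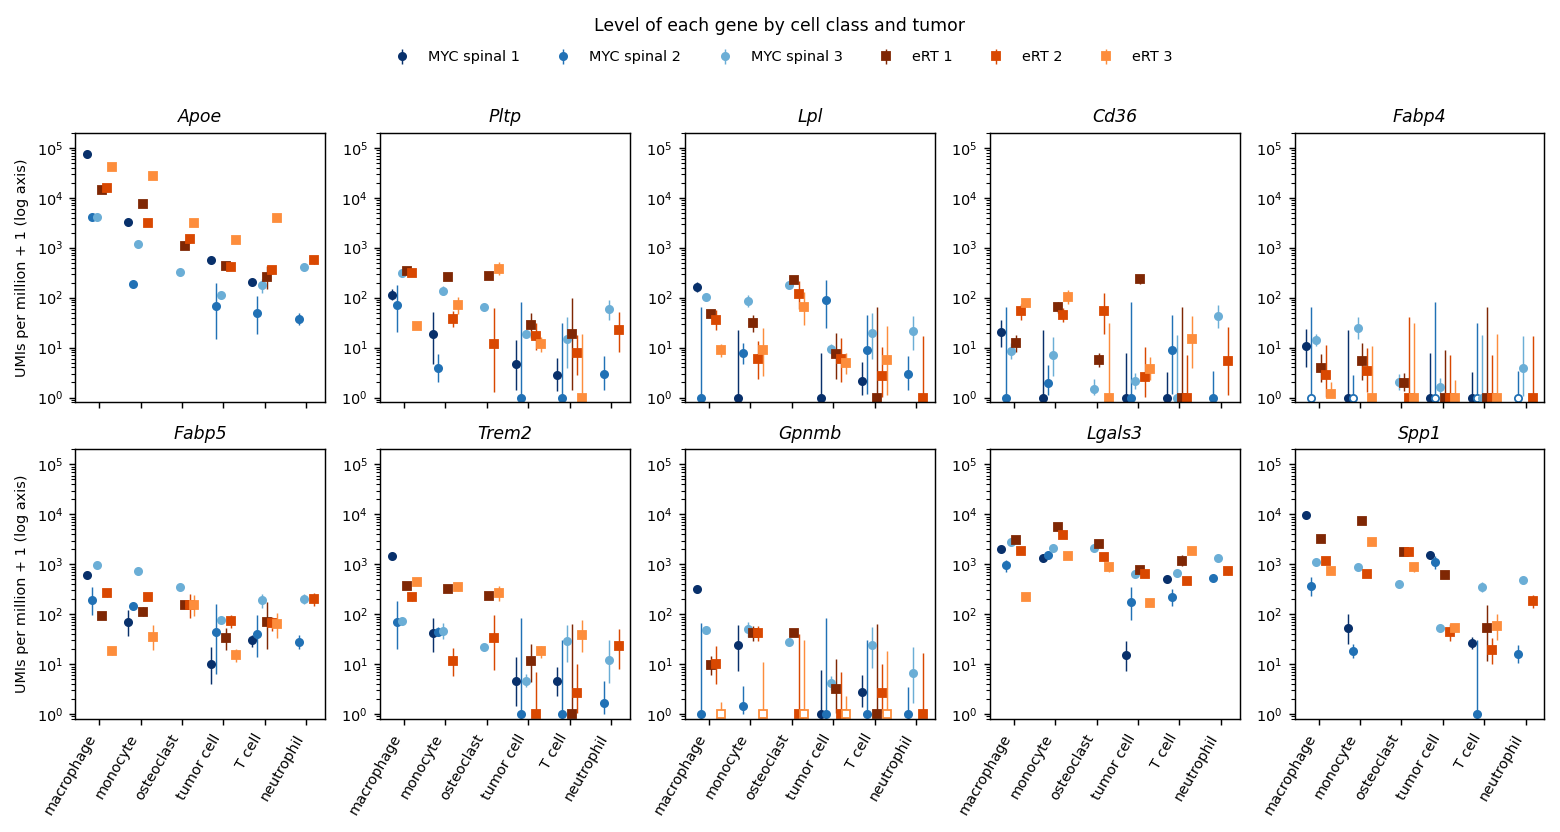
CPM plus 1 (log axis) of the 10 genes in 6 cell classes; circles are MYC spinal and squares eRT tumors, bars are 95% Poisson intervals, and open symbols mark a gene missing from that tumor's table. Classes under 10 cells are left out. *Apoe* steps down from macrophages to tumor cells in each tumor, while *Spp1* in the tumor cells of MYC spinal 1 and MYC spinal 2 (1551 and 1104 CPM) and *Cd36* in those of eRT 1 (231 CPM) stand above the other tumors.

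The fatty acid binding proteins lie near each other on chromosome 3, *Fabp5* at 10012548 to 10016607 and *Fabp4* at 10204088 to 10208576. *Fabp4*, the adipocyte and macrophage form, was scarce. It was missing from the table of MYC spinal 2, which means that it was seen in fewer than 3 cells there, and it had 6 to 102 UMIs over all cells of the other 5 tumors. Macrophages held 9.53, 13.4, 2.93, 1.86 and 0.196 CPM in MYC spinal 1, MYC spinal 3 and eRT 1 to 3, of which the last 2 rest on 1 UMI each. Monocytes held 24.1, 4.39 and 2.39 CPM in MYC spinal 3, eRT 1 and eRT 2 and none elsewhere, and the difference from macrophages was -0.39 ± 0.62 (adjusted p = 0.86). Tumor cells had UMIs in MYC spinal 3 only (5 UMIs, 0.619 CPM). In eRT 2 and eRT 3, 88% and 91.7% of the 25 and 12 *Fabp4* UMIs lay in cells other than macrophages, monocytes, osteoclasts, tumor cells, T cells and neutrophils.

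*Fabp5*, the epidermal form that macrophages also use, had 366 to 14838 UMIs per tumor. Macrophages held 601, 194 and 981 CPM in spinal tumors 1 to 3 and 91.4, 264 and 17.4 CPM in eRT 1 to 3. Monocytes held 70.3, 145, 744, 112, 221 and 34.9 CPM, below the macrophages by plain CPM in spinal tumors 1 to 3 and eRT 2 but in only 2 tumors after scaling. The difference was 0.34 ± 0.43 (adjusted p = 0.811). Osteoclasts held 359, 149, 151 and 154 CPM in MYC spinal 3 and eRT 1 to 3, which is below the macrophages in MYC spinal 3 and eRT 2 and above them in eRT 1 and eRT 3 (0.08 ± 0.55, adjusted p = 0.961, and 0.40 without eRT 2). Tumor cells held 9.13 to 76.3 CPM, lower than macrophages in all 6 tumors, by 2.63 ± 0.67 (adjusted p = 0.00906). T cells had 28.9 to 189 CPM, above the tumor cells of the same tumor in 4 of 6 (MYC spinal 1, MYC spinal 3, eRT 1 and eRT 3).

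*Trem2* (chromosome 17, 48346401 to 48354147) was at 1479.8, 70.7 and 73.4 CPM in macrophages of spinal tumors 1 to 3 and at 367, 221 and 433 CPM in macrophages of eRT 1 to 3. The MYC spinal 1 macrophages had more than any other, and the value in MYC spinal 2 rests on 4 UMIs. Monocytes held 41.0, 43.6, 45.2, 319.6, 10.8 and 346 CPM, lower than macrophages in 6 of 6 tumors. In eRT 1 and eRT 3 the macrophages exceeded the monocytes by little, and the fitted difference was 1.58 ± 0.66 (adjusted p = 0.358). The within-tumor difference was 4.87 in MYC spinal 1, whose monocytes held the 2514.8 CPM of T cell markers, and the fitted value without that tumor was 0.93 (adjusted p = 0.34). *Trem2* in the monocytes of MYC spinal 1 was at 143 CPM in 16 cells and at 0 in the 21 cells of the cluster led by *Mki67*. The part of the T cell markers and of this cluster in the differences of MYC spinal 1 was not tested. In eRT 1 and eRT 3, the summed macrophage markers of the monocytes were 14704 and 13199 CPM, against 305 to 2386 CPM in the other 4 tumors, and the part of this in the small differences was not tested. Thinned to 1000 UMIs, 66.4% of macrophages of MYC spinal 1, 6.23% of MYC spinal 3, 27.3% of eRT 1, 17.7% of eRT 2 and 37.2% of eRT 3 had a *Trem2* UMI, against 0% to 2.11% of T cells.

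Osteoclasts held 21.1, 229, 32.3 and 267 CPM of *Trem2* in MYC spinal 3 and eRT 1 to 3, below the macrophages in every one. It fell by 1.45 ± 0.32 (adjusted p = 0.0115), and by 1.22 without eRT 2 (adjusted p = 0.0149). The call was lost when the members were kept among the genes used for clustering (-1.68, adjusted p = 0.0961). Tumor cells had 0 to 17.1 CPM, and the difference from macrophages, 5.76 ± 0.61 (adjusted p = 2.15e-05), was positive in 6 of 6 tumors. *Trem2* passed the filter on low counts through the macrophages, so this direction was largely set by the filter. The 17.1 CPM in eRT 3 lay under the 37.8 CPM of its T cells, and became 5.92 CPM without cells that held immune UMIs.

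*Gpnmb*, a glycoprotein of lysosomes and the cell surface (chromosome 6, 49036546 to 49070929), was at 318 CPM in macrophages of MYC spinal 1 (167 UMIs), 48.0 CPM in MYC spinal 3, 8.80 CPM in eRT 1 and 9.30 CPM in eRT 2. It was at 0 in MYC spinal 2, which allows up to 53.0 CPM, and was missing from the table of eRT 3, where the 2286 macrophages hold 5114215 UMIs. MYC spinal 1 and MYC spinal 3 were thus above the eRT, and MYC spinal 2 was too shallow to place. Monocytes of eRT 1 and eRT 2 held 40.6 CPM each, above their macrophages, and those of MYC spinal 3 held 49.8 CPM. In eRT 2, 82.9% of all *Gpnmb* UMIs were in monocytes. The fitted difference between macrophages and monocytes was -0.29 ± 0.78 (adjusted p = 0.939). In stricter cells it was -1.45, past the threshold. Osteoclasts held 27.4 CPM in MYC spinal 3 and 41.6 CPM in eRT 1, lower than the macrophages of the first and higher than those of the second tumor, and there was no UMI in those of eRT 2 and eRT 3. The difference was 0.45 ± 0.65 (adjusted p = 0.747), and 0.54 without eRT 2. Tumor cells had 27 UMIs in all tumors together, at most 3.22 CPM, and macrophages exceeded them by 5.03 ± 0.84 (adjusted p = 0.00124), higher in 4 of 6 tumors, and 0 in both classes of the other 2. DESeq2 did not call it (3.08, adjusted p = 0.245). *Gpnmb* entered this comparison through the macrophages, so its direction was largely set by the filter on low counts.

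*Lgals3*, galectin-3, which binds glycans on lipoproteins and damaged lysosomes (chromosome 14, 47367751 to 47386160), was seen in every class of every tumor. Macrophages held 2016, 954 and 2787 CPM in spinal tumors 1 to 3 and 3086, 1824 and 218 CPM in eRT 1 to 3. The macrophages of eRT 3 stood apart at the low end: 14.2% of them had a UMI after thinning, against 53.9% to 83.8% in the other 5 tumors. Monocytes held 1319, 1508, 2149, 5696, 3811 and 1450.1 CPM, above the macrophages in MYC spinal 2 and the 3 eRT. The fitted difference was -0.78 ± 0.39 (adjusted p = 0.466). It was -1.54 and past the threshold in stricter cells. Osteoclasts held 2117, 2599, 1408 and 867 CPM in MYC spinal 3 and eRT 1 to 3 (0.01 ± 0.34, adjusted p = 0.988, and 0.24 without eRT 2).

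*Lgals3* was not specific to myeloid cells. T cells held 217 to 1831 CPM and, in eRT 3, 72.5% of them had a UMI after thinning. Tumor cells held 14.6, 177, 635, 767, 646 and 165 CPM in spinal tumors 1 to 3 and eRT 1 to 3, and were lower than macrophages in 6 of 6 tumors, by 2.33 ± 0.70 (adjusted p = 0.0205). Without MYC spinal 2 or without MYC spinal 3 that call was lost (2.40 and 2.24, adjusted p = 0.0537 and 0.0559). Tumor cells without immune UMIs kept 595 CPM in MYC spinal 3 and 499 CPM in eRT 2. The tumor cells of MYC spinal 1 were lowest and lay under its T cells (508 CPM).

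*Spp1*, osteopontin, a secreted phosphoprotein of bone matrix and of tumor macrophages (chromosome 5, 104435118 to 104441050), was high in the macrophages of MYC spinal 1 and in the monocytes of eRT 1. Macrophages held 9741, 371 and 1127 CPM in spinal tumors 1 to 3 and 3170.1, 1156 and 749 CPM in eRT 1 to 3. Monocytes held 52.8, 17.4, 881, 7220.3, 634 and 2806 CPM, those of eRT 1 and eRT 3 being the ones with high macrophage markers. They were below the macrophages in all 3 MYC spinal tumors and in eRT 2, and above them in eRT 1 and eRT 3, and the difference was 0.88 ± 1.04 (adjusted p = 0.791). It was 7.28 within MYC spinal 1, and 0.05 over the other tumors without it. Osteoclasts held 404, 1793, 1731 and 867 CPM in MYC spinal 3 and eRT 1 to 3, with a difference to macrophages of -0.59 ± 0.29 (adjusted p = 0.24), and of -0.88 without eRT 2 (adjusted p = 0.0726).

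In tumor cells *Spp1* separated the tumors. MYC spinal 1 held 1551 CPM, with a UMI in 68.8% of 96 cells, against 25.9 CPM in its T cells. MYC spinal 2 held 1104 CPM, but its 50 UMIs lay in 2 of 16 cells. The other 4 tumors held 52.5, 600.4, 42.4 and 53.3 CPM. The high level of MYC spinal 1 remained at 1490.5 CPM in cells without immune UMIs, whereas that of eRT 3 went from 53.3 to 8.29 CPM and that of eRT 1 from 600.4 to 2095 CPM in 19 cells. Macrophages exceeded tumor cells in 5 of 6 tumors, by 3.22 ± 0.73 (adjusted p = 0.00449), MYC spinal 2 being the exception.

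Where the UMIs of a member lay in a tumor depended on which cells were present. Macrophages held 93.5%, 63.1%, 56.0%, 68.8% and 76.6% of the *Apoe* UMIs in MYC spinal 1, MYC spinal 3 and eRT 1 to 3, and monocytes held 45.7% of those in MYC spinal 2, where 2073 monocytes stood against 81 macrophages. In eRT 1 osteoclasts held 6205394 of all 12692959 UMIs. They held 74.2% of the *Lpl* and 76.3% of the *Gpnmb* UMIs, above that share. Their 49.5% of the *Fabp5* and 46.4% of the *Trem2* UMIs were close to it. In MYC spinal 3 an unnamed cluster held more *Lpl* and *Fabp5* UMIs than any named class, 43.7% and 44.2%.

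**Figure D3:**
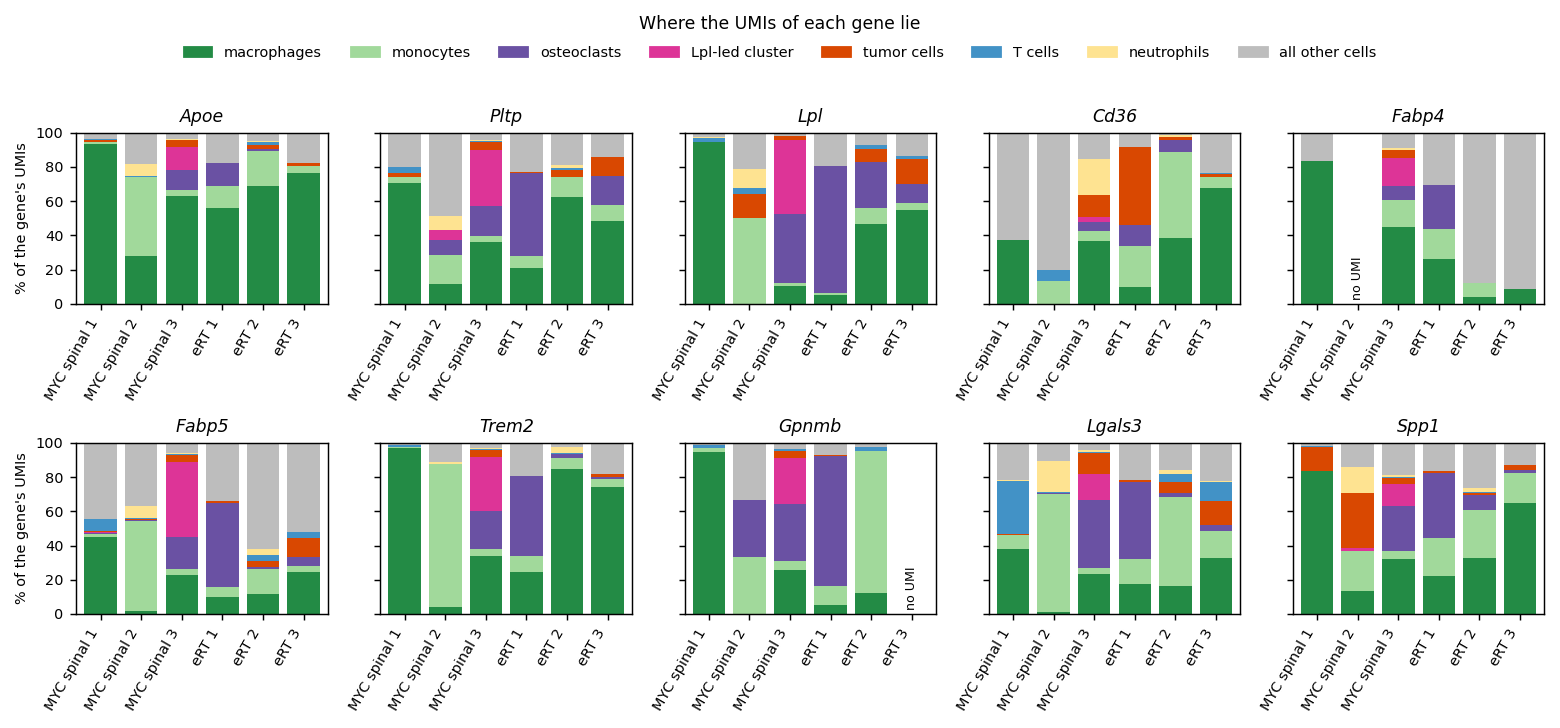
Percent of each gene's UMIs (y axis) that lie in each cell class, by tumor; all other cells include unnamed clusters, dendritic cells and B cells. Green marks macrophages, which hold most of *Apoe* in 5 tumors, and pink marks the *Lpl*-led cluster, seen almost only in MYC spinal 3, where it holds 43.7% of *Lpl* and 44.2% of *Fabp5*.

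This cluster had 1115 cells, 1104 of them from MYC spinal 3, and its leading genes included *Lpl*, *Fabp5* and *Pltp* beside *Htra1*, *Nrp2*, *Sbsn* and *Sdc1*. Since it was found in the same cells, these 3 members describe it and are not tested. In the cells of MYC spinal 3 it held 374 CPM of *Lpl* and 1651 CPM of *Fabp5*, above the macrophages (101 and 981 CPM) and osteoclasts (176 and 359 CPM) of that tumor. *Apoe* was at 765 CPM there, between osteoclasts (319.7 CPM) and macrophages (4042 CPM), and *Cd36* at 0.504 CPM. *Lgals3*, at 1549 CPM, was under the level of both. The osteoclast markers summed to 6140 CPM, against 824 CPM in macrophages and 25855 CPM in osteoclasts, and the macrophage markers to 1817, 10243 and 1608 CPM. In an alternative added after the data had been seen, these cells were counted as macrophages. The *Lpl* difference between osteoclasts and macrophages was then 1.31 and not past the threshold (adjusted p = 0.099), while *Apoe*, *Trem2* and *Cd36* were still called lower.

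Among the macrophage clusters of the eRT, a pair shared by all 3 tumors differed in several members at once. One was led by MHC class II genes (*H2-Eb1*, *H2-Ab1*, *Cd74*) and the other by *Ccl8*, *Cbr2*, *Folr2* and *Mrc1*, genes of resident tissue macrophages. In the first, *Apoe* was at 10446, 5982 and 33782 CPM in eRT 1 to 3. In the second it was at 18621, 26250.3 and 51747 CPM, higher in each tumor. *Trem2* was at 224, 98.7 and 348 CPM in the first and 532, 356 and 603 CPM in the second, and *Spp1* at 1109, 501 and 366 CPM against 5580.3, 1869 and 1529 CPM. *Pltp* and *Fabp5* followed the same order in all 3 tumors, whereas *Lgals3* had the opposite order, with 3369.5, 2109 and 272 CPM in the first and 2775, 1551 and 132 CPM in the second. *Lpl* and *Cd36* kept no order. The clusters were built from these cells, so the differences are a description, with the tumors as 3 repeats.

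**Figure D4:**
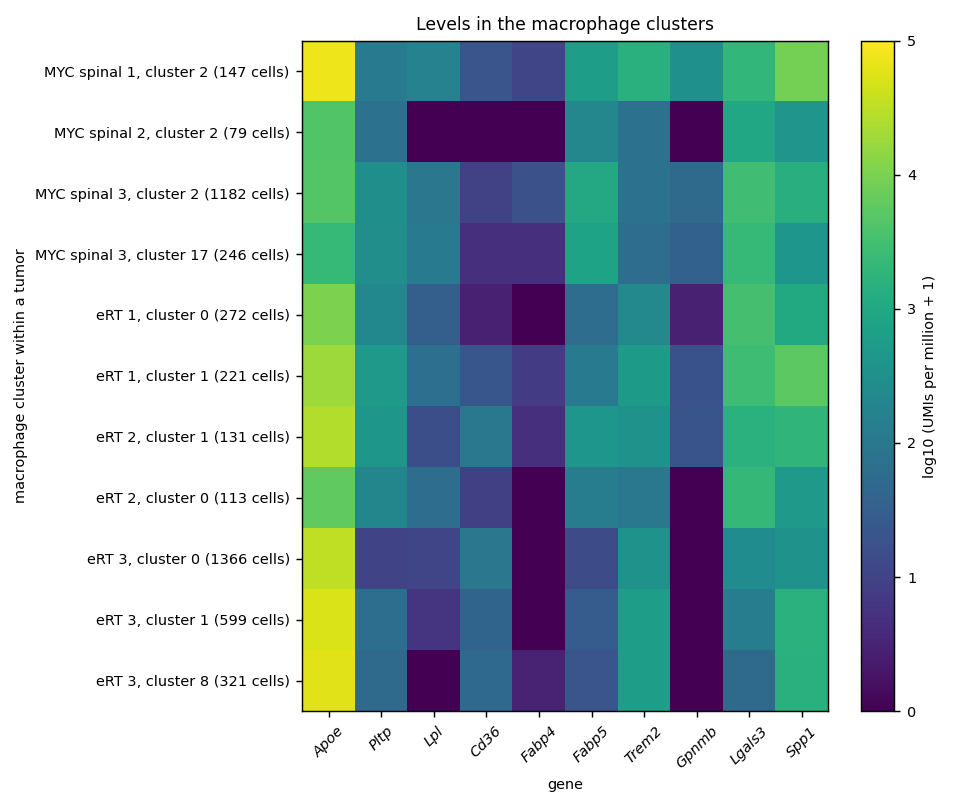
Colour gives log10 (CPM + 1) of the 10 genes (columns) in each macrophage cluster with at least 30 cells in a tumor (rows). Within each eRT, cluster 1 lies above cluster 0 for *Apoe*, *Trem2* and *Spp1*, and the row of MYC spinal 1 is the brightest for *Trem2*, *Gpnmb* and *Spp1*.

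Within single macrophages, thinned to 1000 UMIs, the share with *Apoe* was higher among *Trem2*-positive cells than among all macrophages in MYC spinal 3 and eRT 2. The share among all macrophages includes the *Trem2*-positive cells. Of the 89 *Trem2*-positive macrophages of MYC spinal 3, 80.9% had an *Apoe* UMI, against 67.2% of all its macrophages, and of the 40 in eRT 2, 97.5% did, against 72.6%. In MYC spinal 1 and eRT 3 nearly every macrophage had *Apoe* in any case (100% and 99.8%). In eRT 1 the shares were close, 93.4% of the *Trem2*-positive macrophages against 91.8% of all. MYC spinal 2 had 1 *Trem2*-positive macrophage among 14 and was not compared. *Gpnmb*-positive macrophages had *Spp1* in 15 of 16 cells of MYC spinal 1, 25 of 53 cells of MYC spinal 3, 4 of 4 cells of eRT 1 and 0 of 2 cells of eRT 2, against 55.9%, 29.8%, 39.2% and 25.7% of all macrophages. Of the *Lgals3*-positive macrophages of these 4 tumors, 48.8%, 31.9%, 37.6% and 20.8% had *Spp1*, a higher share than among all macrophages in MYC spinal 3 and a lower one in the others. These are counts of cells within a library and were not tested across tumors.

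No member passed the threshold between the subtypes. In macrophages, 0% of 7208 genes passed the threshold between eRT and MYC spinal tumors with edgeR (191 had an unadjusted p under 0.05, and DESeq2 called 10), and no member had groups that did not overlap (over all genes, 4.31% lay above and 2.19% below without overlap). *Gpnmb* had the smallest unadjusted p (0.00713) and was lower in eRT by 4.78 ± 1.41 (log2 ± SE, adjusted p = 1), at 6.03 ± 5.23 CPM (SD, n = 3, eRT 3 at 0 by its absence from the table) against 122 ± 172 CPM (n = 3). *Fabp5* was at 124 ± 127 against 592 ± 393 CPM (-2.24 ± 0.90, adjusted p = 1). *Cd36* was at 47.3 ± 33.9 against 8.88 ± 9.60 CPM (2.23 ± 0.85, adjusted p = 1), and with the mouse model as a covariate its difference was 0.01.

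*Apoe*, *Trem2* and *Spp1* in macrophages turned on MYC spinal 1. Their differences between eRT and MYC spinal tumors were -0.13 ± 1.11, -0.65 ± 1.01 and -1.17 ± 1.04. Without MYC spinal 1 they were 2.82, 2.44 and 1.24 (adjusted p = 0.273, 0.335 and 0.9996). The macrophages of MYC spinal 1 also had the highest summed macrophage markers, 29420.2 CPM against 3003 to 22859 CPM in the others, and the highest sum of 6 microglia markers, 2379.9 CPM against 246 to 852 CPM, although tumor cells also held 1019 to 1749 CPM of the latter list. The part of these in the levels of MYC spinal 1 was not tested. In tumor cells, 4 members could be tested (*Apoe*, *Fabp5*, *Lgals3* and *Spp1*) and 0% of 5610 genes passed the threshold (201 had an unadjusted p under 0.05, and DESeq2 called 21), while 4.72% lay above and 2.46% below without overlap. *Apoe* was at 748 ± 569 CPM in eRT and 247 ± 277 CPM in MYC spinal tumor cells (1.97 ± 0.82, adjusted p = 1) and *Spp1* at 232 ± 319 and 903 ± 769.6 CPM (-1.76 ± 1.24, adjusted p = 1).

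The genes around the members were read from 6 lists of 61 other lipid-handling genes, chosen like the members with earlier results known. Against tumor cells, where 19.1% of all genes were higher and 20.3% lower in macrophages, many of these genes passed the filter on low counts through the macrophages. In tumor cells alone 2 *Trem2* signaling, 11 lysosomal, 3 efflux, 2 uptake and 5 droplet genes passed it, and 7 other genes of the state, so the counts that follow are descriptions. The 8 genes of *Trem2* signaling were higher in macrophages, among them the adaptor *Tyrobp* (5.07 ± 0.52, adjusted p = 1.69e-05) and the phosphatase *Inpp5d* (4.61 ± 0.40). Lysosomal lipid breakdown had 10 of 12 genes higher and 1 lower, the sphingomyelinase *Smpd1* (-1.70 ± 0.39), with the saposin precursor *Psap* at 2.50 ± 0.34. Cholesterol efflux and LXR targets had 6 of 9 higher and 1 lower. The apolipoprotein *Apoc1* (5.75 ± 1.01) and the cholesterol exporter *Abca1* (2.52 ± 0.32) rose, and the desaturase *Scd2* fell by 1.88 ± 0.28. Of the uptake genes 5 of 6 were higher, the scavenger receptor *Msr1* by 5.31 ± 0.34 and the lipoprotein receptor *Lrp1* by 1.31 ± 0.25. Lipid droplet genes had 4 of 9 higher, including the droplet coat *Plin2* (2.05 ± 0.30) and the cholesterol-esterifying enzyme *Soat1* (1.64 ± 0.26). Of the other genes of the state, 4 of 9 were higher, such as the inhibitory receptor *Lilrb4a* (4.89 ± 0.52) and the protease *Ctsz* (3.40 ± 0.50), and 1 lower, the growth factor *Csf1* (-4.26 ± 1.03). *Smpd1* and *Csf1* were named after their values were seen.

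Against monocytes, where 0.68% of all genes passed the threshold, none of these genes did in any list, and the list medians ran from -0.24 to 0.63. In osteoclasts, of the tested genes, 2 of 9 efflux genes, 3 of 7 uptake genes, 3 of 10 droplet genes, 4 of 12 lysosomal genes, 2 of 8 signaling genes and 4 of 9 other genes of the state were lower than in macrophages, where 9.13% of all genes were lower and 4.65% higher. Higher in osteoclasts were *Smpd1* (1.89 ± 0.53) and the tetraspanin *Cd9* (1.09 ± 0.28, adjusted p = 0.0256). *Abca1* fell by 1.94 ± 0.29, the scavenger receptors *Stab1* and *Msr1* by 2.30 ± 0.34 and 1.75 ± 0.25, *Soat1* by 1.37 ± 0.32, *Psap* by 1.48 ± 0.33, *Inpp5d* by 1.44 ± 0.28, and *Lilrb4a* and the receptor kinase *Axl* by 2.35 ± 0.27 and 2.07 ± 0.36. All these osteoclast fits included eRT 2. Between the subtypes no listed gene passed the threshold.

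Over the 22 sums by tumor and class, the genes nearest to each member were found among 9332 genes by Pearson's correlation of log2 CPM with 10 CPM added. The sums share tumors and depth, so the correlations are descriptions. *Apoe* ran closest to the lysosomal protease *Lgmn* (0.94) and the chemokine *Ccl12* (0.93), and *Trem2* to *Tmem86a* (0.94) and the lipase *Abhd12* (0.92). *Lpl* ran closest to *Tnfrsf11a* (0.79), the gene of RANK, the receptor that drives osteoclast formation, and *Fabp4* to *Nr1h3* (0.80), the gene of LXR alpha, and to *Fabp5* (0.72). A neighbour needed at least 200 UMIs over the sums, a limit not set for the members. *Fabp4* exceeded the added 10 CPM only in macrophages and monocytes of MYC spinal 3 (46 and 16 UMIs), so its correlations rest on few counts. *Pltp* was nearest to *Cd72* (0.83), *Lgals3* to *Fxyd5* (0.85), *Spp1* to the lysosomal nuclease *Dnase2a* (0.79), *Cd36* to *Atp6v0a1* (0.76), *Fabp5* to *Rgl1* (0.75) and *Gpnmb* to *B2m* (0.74). Among the members themselves *Apoe* and *Trem2* were the closest pair (0.85), followed by *Fabp5* with *Lgals3* and with *Fabp4* (both 0.72). *Apoe* and *Lpl* showed almost no relation (0.05), and *Cd36* reached at most 0.46, with *Apoe*.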

How the data were processed

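Single cells of 6 tumors were profiled with the 10x 3′ v2 chemistry. The authors counted UMIs with Cell Ranger 2.0.2 against mm10, and the deposited tables hold raw UMI counts, limited to genes seen in at least 3 cells and cells with at least 50 genes. The members and gene lists were chosen with earlier results of these data known. Cells under 200 genes or over 25% mitochondrial UMIs were dropped. The rest were integrated and clustered per subtype in Seurat 5.3.0 (2000 variable genes without members and listed genes, 30 dimensions, 20 neighbours, resolution 0.8). A cluster was named from at least 3 markers raised by a log2 fold of 1, and called tumor when *Smarcb1* was under 0.25 of its expected level. UMIs were summed per tumor and class with at least 10 cells and tested with edgeR 4.0.16 (TMM, filterByExpr, quasi-likelihood, 0.05), with the tumor as a block for classes of the same animal. SE is the log2 fold change over the root of F. A gene missing from a table counted 0. Scrublet (scanpy 1.11.5) marked 33 of 22163 cells, too few to have worked, so no doublets were removed in the main results. Intervals are exact at 95% and, like the floor of 3 counts, cover counting error only. Each tumor is 1 animal. All 10 members were described in each comparison, with up to 2 genes per direction from each list by size of change and 2 neighbours per member. A gene that this rule names is not reported here. Alternatives were other normalization, DESeq2 1.42.0, filters, clusterings, left-out tumors, no block, a covariate and a Smarcb1 limit of 0.15 or 0.5. The fits were tested on simulated data.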

Additional observations from a re-analysis of the deposited data

How the results depend on the processing

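The classes were paired because they came from the same animals. In macrophages against monocytes, 53 genes were called with the tumor as a replicate block and 0 without this pairing. With DESeq2 the count was 135, with every gene of at least 1 UMI 512, in stricter cells (at least 500 genes, at most 10% mitochondrial UMIs) 300, at resolution 1.6 it was 130, and leaving out each tumor gave 1 to 128. In macrophages against tumor cells, 3205 genes became 1554 without the block, and *Spp1* then missed the threshold (2.67, adjusted p = 0.0501). In osteoclasts against macrophages, 1393 genes became 534 without the block, where *Lpl* (1.61, adjusted p = 0.178), *Trem2* (-1.25) and *Cd36* (-3.29) missed the threshold. The count was 838 with members kept among the clustering genes and 491 to 1650 when a tumor was left out (lowest without eRT 1). Between subtypes, 0 genes in macrophages became 10 with DESeq2, 18 with every gene, 6 in stricter cells, 9 with the *Lpl*-led cluster counted as macrophages (added after seeing the data), and 0 to 2 when a tumor was left out. In tumor cells 0 became 21 with DESeq2.

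Differences of some members changed sign in some settings, and the cause was not tested. In macrophages against monocytes these were *Fabp4* (0.01 with DESeq2, 0.14 at resolution 0.4), *Gpnmb* (1.31 without the block), and *Fabp5* and *Spp1* (-0.65 and -0.25 in stricter cells). Leaving out a tumor gave *Fabp5* -0.12 to 0.53, *Cd36* -0.77 to 0.16 and *Gpnmb* -1.30 to 0.41. In osteoclasts against macrophages, *Fabp5* was -0.75 without the block, -0.31 in stricter cells, -0.23 at resolution 0.4 and -0.03 with the *Lpl*-led cluster added. *Lgals3* was -0.25 without the block, -0.36 in stricter cells, -0.07 at resolution 0.4 and -0.07 with members kept. Leaving out a tumor gave *Fabp5* -0.57 to 0.66, *Gpnmb* -0.93 to 1.63 and *Lgals3* -0.42 to 0.24. In macrophages between subtypes, *Lgals3* stood at 0.71 with mouse model as covariate, 0.53 in stricter cells and 0.07 with the *Lpl*-led cluster, and *Apoe* was 0.32 and 0.07 at resolutions 0.4 and 1.6 and 0.46 with members kept. Leaving out a tumor gave *Apoe* -0.91 to 2.82, *Trem2* -1.23 to 2.44, *Spp1* -1.92 to 1.24 and *Lgals3* -0.84 to 0.31. In tumor cells, *Fabp5* was -0.24 without TMM factors, -0.48 with the covariate, -0.22 in stricter cells, -0.03 at resolution 1.6, -1.73 with a *Smarcb1* limit of 0.5, and -0.95 to 1.89 with a tumor left out. With every gene of at least 1 UMI, *Apoe*, *Trem2*, *Pltp*, *Lpl* and *Lgals3* passed the threshold against monocytes. *Cd36* against tumor cells passed it with DESeq2 (3.20). A floor of 3 counts equals 53.0 CPM in the macrophages of MYC spinal 2 and 66.3 CPM in its tumor cells. Smaller differences there were not resolved. Mean levels moved by over 1 SD in 1 of 280 cases, *Gpnmb* in monocytes (90.8 CPM in stricter cells).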

Other observations

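Members were also abundant outside the classes compared. Unnamed eRT clusters led by *Rrm2* and *Top2a* and by *Cenpf* and *Birc5* held 525 and 415 cells. *Apoe* was at 2374, 617 and 26087 CPM in the first and 5577, 3370 and 27997 CPM in the second, in eRT 1 to 3. The macrophages of each tumor held more (14256, 15808 and 40415 CPM). *Trem2* was at 214, 0 and 288 CPM in the first and 224, 17.6 and 319 CPM in the second. Dendritic clusters led by *Ccr7*, *Fscn1* and *Ccl22* held 3696 CPM of *Fabp5* in MYC spinal 3 and 3375 and 3775 CPM in eRT 2 and eRT 3, above the macrophages of the same tumors (981, 264 and 17.4 CPM). *Fabp4* in these cells was at 109, 86.7 and 219 CPM, against 13.4, 1.86 and 0.196 CPM in macrophages. The cells number 21, 47 and 10, so the values describe few cells.

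An unnamed cluster of the MYC spinal tumors led by *Apod*, *Trf* and *Cryab* differed between tumors. In its 202 cells of MYC spinal 3, *Spp1* was at 3832 CPM and *Fabp5* at 92.6 CPM. In its 21 cells of MYC spinal 1, *Spp1* was at 78.7 CPM, *Fabp5* at 3135 CPM and *Apoe* at 4525 CPM.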
